A study of Mus musculus with 3 samples.

Results

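The genes described here encode 7 RNA-binding proteins that shorten the life of inflammatory mRNAs: the Roquin genes Rc3h1 and Rc3h2, the Regnase genes Zc3h12a (Regnase-1) and Zc3h12d (Regnase-4), and the Zfp36 family, made up of Zfp36 (tristetraprolin), Zfp36l1 and Zfp36l2. They were listed by gene name with earlier results of these data known. All 7 carried H3K36me3 signal, among 10080 protein-coding genes with enough signal to be compared. H3K36me3, trimethylation of lysine 36 of histone H3, was measured by chromatin immunoprecipitation and sequencing (ChIP-seq) in Treg cells, the Foxp3-expressing T cells that restrain immune responses. CD3+CD4+Foxp3-YFP+ cells were sorted from spleen and large intestine (LI) of adult Foxp3Cre-YFP mice of the C57BL/6 strain, in which Foxp3 drives Cre recombinase and a yellow fluorescent protein, at steady state and with no Setd2 deletion. Cells of 7 male and 7 female mice were pooled, and each tissue gave 1 library, so nothing below has a replicate check and no p-value is given. A splenic input library was used by the authors for peak calling and was not analysed here.

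Roquin proteins recognise stem-loops in the 3' ends of their target mRNAs and recruit deadenylase and decapping complexes, Regnase proteins cut stem-loops with their own nuclease domain, and Zfp36 proteins bind AU-rich elements and recruit the CCR4-NOT deadenylase. In T cells these proteins restrain activation, and Roquin and Regnase-1 are known to act on overlapping sets of mRNAs such as those of Icos and of Rel. H3K36me3 is deposited by Setd2 as RNA polymerase II elongates, so that it lies over the bodies of transcribed genes, usually more densely toward their 3' ends. All 7 proteins carry CCCH zinc fingers, in which 3 cysteines and 1 histidine hold a zinc ion.

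The DNA that encodes these fingers is shown because it is what joins the 7 genes and because it lay under H3K36me3 peaks in all of them. Sequences are the spliced coding strand of GENCODE M21 transcripts on GRCm38 (mm10), 5' to 3', and capitals mark the codons of the zinc-binding cysteines and histidines. The Zfp36 family has a tandem pair of fingers encoded by 174 bases of exon 2, at chr7:28378044-28378217 for Zfp36, chr12:80110075-80110248 for Zfp36l1 and chr17:84186554-84186727 for Zfp36l2, all on the minus strand.
Zfp36: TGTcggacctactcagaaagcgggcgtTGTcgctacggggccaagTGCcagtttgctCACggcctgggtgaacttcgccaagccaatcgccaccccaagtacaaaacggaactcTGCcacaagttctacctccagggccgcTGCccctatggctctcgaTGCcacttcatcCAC
Zfp36l1: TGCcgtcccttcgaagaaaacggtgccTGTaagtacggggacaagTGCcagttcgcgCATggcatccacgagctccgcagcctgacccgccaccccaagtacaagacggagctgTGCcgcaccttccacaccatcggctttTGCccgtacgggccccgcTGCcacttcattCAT
Zfp36l2: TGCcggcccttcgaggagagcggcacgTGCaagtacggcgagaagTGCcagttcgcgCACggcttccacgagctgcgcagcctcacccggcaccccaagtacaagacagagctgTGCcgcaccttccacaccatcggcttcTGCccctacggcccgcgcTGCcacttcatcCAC
Zfp36l1 and Zfp36l2 were identical at 87.4% of these bases, Zfp36 and Zfp36l1 at 67.8%, and Zfp36 and Zfp36l2 at 69.0%.

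The single finger of the Roquin genes was encoded by 60 bases of exon 9, at chr1:160950255-160950314 on the plus strand for Rc3h1 and chr2:37398264-37398323 on the minus strand for Rc3h2. That of the Regnase genes took 51 bases split over exons 5 and 6, between chr4:125120104 and 125120335 on the minus strand for Zc3h12a and between chr10:7866325 and 7867304 on the plus strand for Zc3h12d.
Rc3h1: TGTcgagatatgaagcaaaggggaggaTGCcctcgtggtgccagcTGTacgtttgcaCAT
Rc3h2: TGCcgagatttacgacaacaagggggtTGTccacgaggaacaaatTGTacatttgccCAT
Zc3h12a: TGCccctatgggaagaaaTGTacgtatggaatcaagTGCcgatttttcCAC
Zc3h12d: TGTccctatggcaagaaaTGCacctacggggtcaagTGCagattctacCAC
The Roquin pair was identical at 65% of these bases and the Regnase pair at 80.4%. Every one of the finger-coding bases of the 7 genes lay inside a peak. For the Zfp36 family the whole tandem pair sat in the tall peak described below, and for Zc3h12a and Zc3h12d the finger sat in the longest peak of the gene.

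Each value is the mean coverage of 1 merged peak in RPKM, reads per kilobase scaled to the number of mapped reads. Both libraries were scaled to the same total over all 120910 peaks, a peak was given to a gene when its midpoint lay in the gene body or within 3 kb past the 3' end, and the values of a gene's peaks were summed. Ratios are log2 of LI over spleen, with 0.5 RPKM added to each sum. The 95% interval printed beside a ratio is approximate and covers counting error only, with reads taken to cover 200 bp. It says nothing of the spread between mice. In a bulk library, fewer cells with the mark and less mark per cell cannot be told apart.

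The 7 genes differed in length and in how densely they were marked. Zfp36, Zfp36l1, Zfp36l2 and Zc3h12a are shorter than 10 kb, and averaged over their bodies they ranked among the most densely marked coding genes of both libraries. Zfp36l2 (chr17:84183931-84187947, minus strand), which with Zfp36l1 restrains proliferation during lymphocyte development, had 34.8 RPKM per body base in spleen and 32.7 in LI, above 99.6% and 99.3% of the 10244 coding genes with a peak in the body. Zc3h12a (chr4:125118423-125127840, minus strand) had 31.9 RPKM in spleen and 34.7 in LI, above 99.4% and 99.5% of genes. Zfp36 (chr7:28376784-28380253, minus strand), an immediate early gene, had 27.5 and 30.2 RPKM, and Zfp36l1 (chr12:80107754-80113013, minus strand) had 26.5 and 30.8 RPKM. Both were at the 98.6 percentile or above in each library. The median coding gene had 4.59 RPKM per body base in spleen and 4.71 in LI, and the median of the 2360 such genes under 10 kb was 7.19 and 7.49 RPKM.

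Zc3h12d (chr10:7832470-7870396, plus strand) stood between the groups, with 13.3 RPKM per body base in spleen, above 85.4% of genes, and 11.4 in LI, above 79.1%. The Roquin genes lay near the middle of all coding genes. Rc3h1 (chr1:160906418-160974978, plus strand) had 4.68 RPKM in spleen and 4.60 in LI, at the 50.5 and 49.4 percentiles. Rc3h2 (chr2:37370069-37422903, minus strand), its paralog, was the lowest of the 7 with 3.45 and 2.56 RPKM, at the 42.6 and 35.5 percentiles. These levels per length show the order Zfp36l2, Zc3h12a, Zfp36, Zfp36l1, Zc3h12d, Rc3h1, Rc3h2 in spleen. In LI, Zc3h12a came first and Zfp36l1 passed Zfp36, while the lowest 3 kept their places. With 1 library per tissue, the order within the 4 compact genes has no replicate error to be read against.

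**Figure D1:**
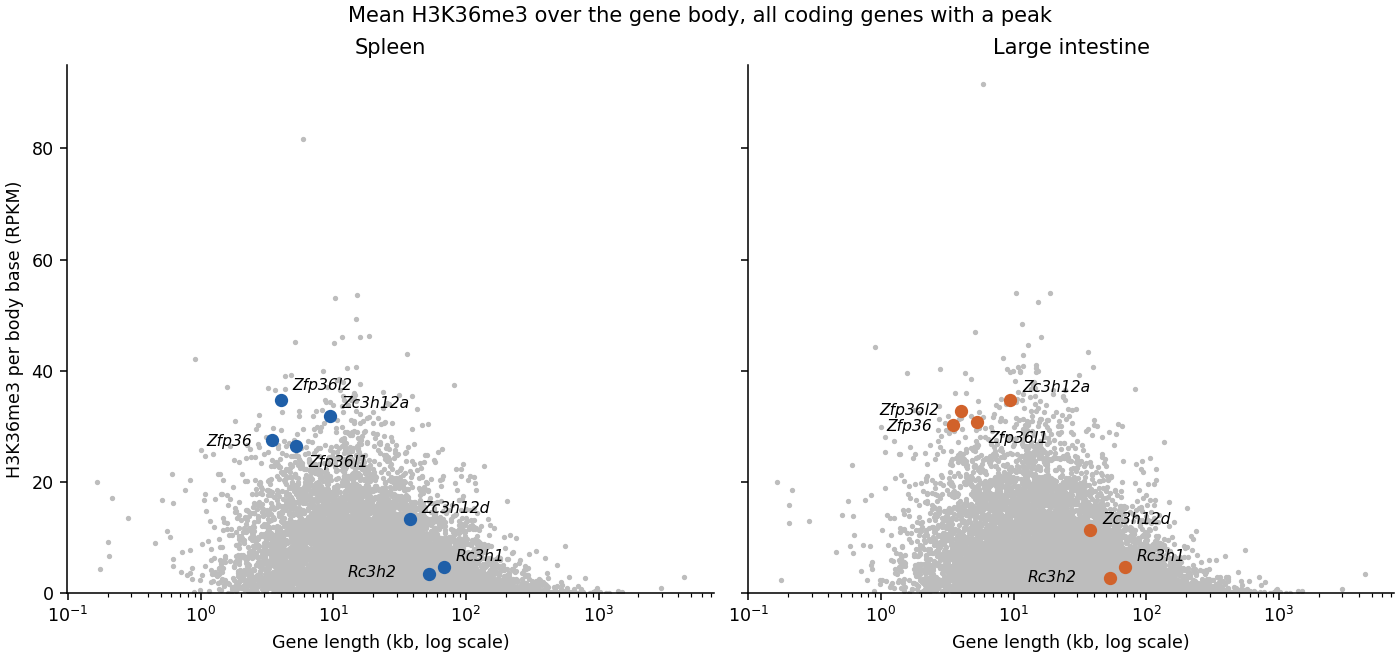
Mean H3K36me3 per base of the gene body (RPKM, vertical axis) against gene length (kb, log scale) for every coding gene with a peak in the body (grey) in spleen (left) and LI (right), with the 7 decay genes coloured and named. The 4 compact genes sit between 26.5 and 34.8 RPKM in both libraries, and Rc3h1 and Rc3h2 lie among the bulk of the long genes.

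In each compact gene 1 long peak was higher than the rest. The tall peak of Zfp36l2 (chr17:84184809-84187337) measured 54.0 RPKM in spleen and 50.6 in LI, higher than 99.98% of all peaks in spleen. The longest peak of Zc3h12a (chr4:125118394-125122976) covered the 3' part of the gene at 45.7 RPKM in spleen and 49.8 in LI. The tall peak of Zfp36 (chr7:28376957-28379593) had 36.2 and 39.7 RPKM, and that of Zfp36l1 (chr12:80108376-80113045) had 29.2 and 34.5 RPKM. The peak of Zfp36l1 ran the length of nearly the whole gene. All of these peaks stood above 99.3% of the peaks of either library. No other coding gene shared a peak with any of the 7, but the Zfp36l1 peak had its midpoint in the long noncoding gene Gm26669 and the Zfp36l2 peak in the antisense gene AC132455.1, and ChIP signal has no strand.

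The long genes carried more peaks, most of them lower. Rc3h1 held 35 peaks of 2.68 to 17.1 RPKM in spleen and 3.45 to 15.7 in LI. Rc3h2 held 29 peaks of 6.65 to 17.6 RPKM in spleen and 2.37 to 13.6 in LI. Zc3h12d held 24 peaks, of which the highest were a pair toward its 3' end. These measured 30.9 RPKM in spleen and 27.7 in LI (chr10:7860356-7862643), and 27.4 and 26.0 RPKM (chr10:7862735-7868895). The median Zc3h12d peak had 13.8 RPKM in spleen and 9.54 in LI.

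**Figure D2:**
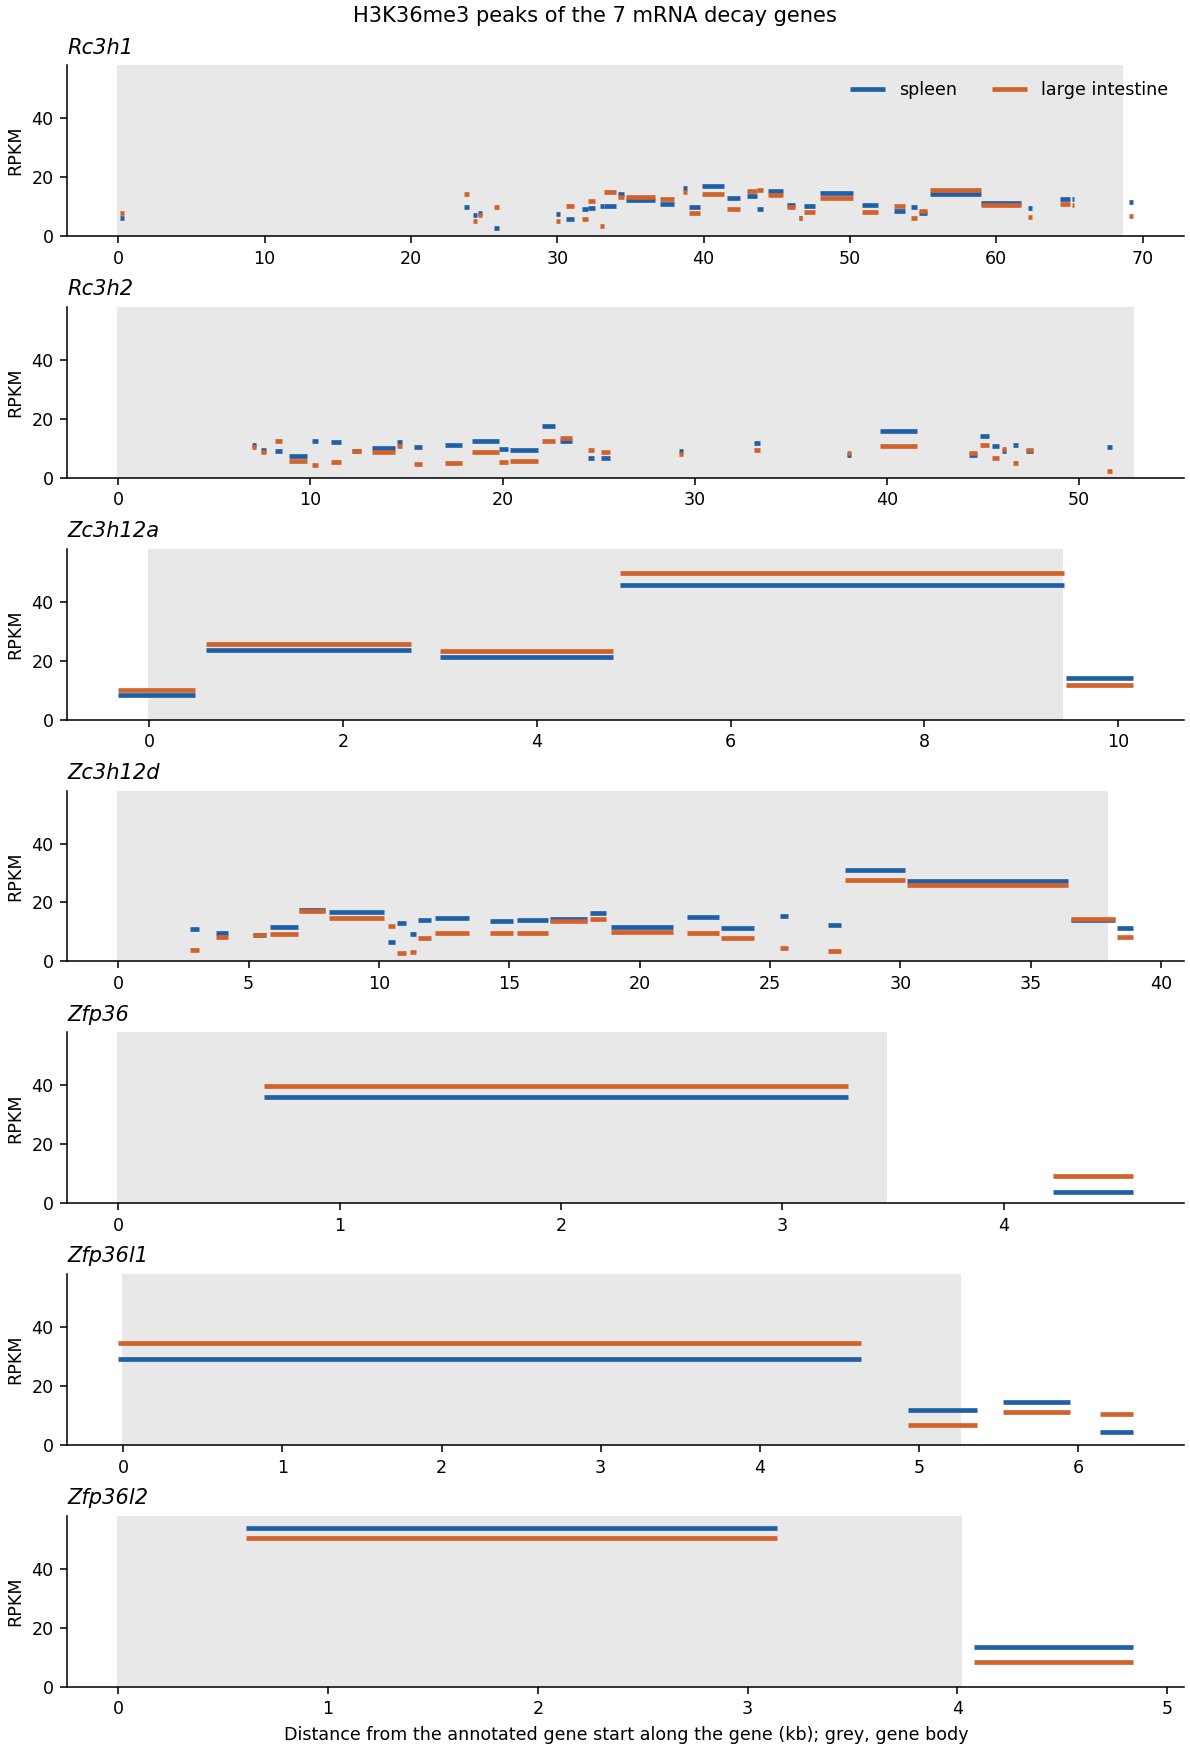
Each H3K36me3 peak of the 7 genes as a horizontal line at its value (RPKM) in spleen (blue) and LI (orange), placed by its distance along the gene from the annotated start (kb), with the gene body in grey. Zfp36, Zfp36l1, Zfp36l2 and Zc3h12a have tall peaks of up to 54.0 RPKM, whereas Rc3h1 and Rc3h2 have 35 and 29 peaks of at most 17.6 RPKM.

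Peaks covered most of the compact genes and less of the Roquin genes. Coverage of the body was 94.7% for Zc3h12a, 94.4% for Zfp36l1, 76.0% for Zfp36, 73.4% for Zc3h12d, 70.0% for Zfp36l2, 39.7% for Rc3h1 and 30.7% for Rc3h2. The median was 36.3% over coding genes with a peak in the body and 49.0% over those under 10 kb. The protein-coding bases were covered more fully, at 98.6% to 100% in 6 genes and at 77.7% in Rc3h2. In Rc3h1 99.0% of the coding bases lay under a peak against 38.4% of the introns, and in Rc3h2 30.1% of the introns did. For Zfp36l2, Zc3h12d, Zc3h12a and Zfp36l1, peaks covered 37.2%, 70.7%, 92.5% and 100% of the introns. The first Rc3h1 peak was small, at 6.03 RPKM in spleen and 7.69 in LI, and the next peak lay 23.8 kb from the start. The first peak of Rc3h2 lay 7.07 kb from its start and that of Zc3h12d 2.93 kb from its start. The outermost annotated start was under a peak in 3 of the 7 genes (Zc3h12a, Zfp36l1 and Zfp36l2) and in 4.51% of the coding genes tested. The peak over the Zfp36l2 start (chr17:84187664-84188647) was not its tall peak, and had 11.3 RPKM in spleen and 11.8 in LI. Its midpoint lay upstream of the gene, so it was not counted among the peaks of Zfp36l2. The RefSeq start of Zfp36 lay in the tall peak of that gene, although its outermost GENCODE start did not. The outermost 3' end was under a peak in 3 of the 7 (Zc3h12a, Zc3h12d and Zfp36l1) against 39.4% of coding genes.

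Comparing spleen and LI asks whether the mark over a gene differs between Treg cells of a lymphoid organ and of a barrier tissue. None of the 7 genes differed by more than 1.5-fold in summed signal. Among the coding genes tested, 8.8% were past 1.5-fold higher in LI and 5.21% past 1.5-fold higher in spleen. The median ratio of the 7 was -0.04, beside a median of 0.02 for all coding genes, of which the middle 50% lay between -0.18 and 0.24. Of the 7 ratios, 3 were above 0. The counting interval lay above 0 for Zfp36 alone, as in 18.1% of coding genes, and below 0 for Rc3h2 and Zc3h12d, as in 14% of coding genes. With peaks weighted by length, it lay above 0 for Zfp36l1 instead (0.20, interval 0.02 to 0.38). The length-weighted interval of Zfp36 included 0 (0.16, interval -0.07 to 0.39), and those of Rc3h2 and Zc3h12d stayed below 0.

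The Regnase genes differed in ratio. Zc3h12d, whose expression is enriched in lymphocytes, summed to 341.4 RPKM in spleen and 257.6 in LI, the lowest ratio of the 7 at -0.41 (interval -0.55 to -0.26). Of its 24 peaks, 21 were higher in spleen. Zc3h12a summed to 113.4 RPKM in spleen and 120.6 in LI, a ratio of 0.09 (interval -0.07 to 0.25), and 4 of its 5 peaks were higher in LI. The Zc3h12d interval does not overlap that of Zc3h12a, without a correction for GC content. With the correction over all peaks given below, the ratios were -0.43 for Zc3h12d and -0.15 for Zc3h12a.

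Both short and long peaks of Zc3h12d had lower sums in LI. Its 13 peaks under 1 kb summed to 159.1 RPKM in spleen and 104.5 in LI, a ratio of -0.60 (interval -0.89 to -0.31), whereas its 11 peaks of at least 1 kb gave 182.3 and 153.1 RPKM, a ratio of -0.25 (interval -0.38 to -0.12). These intervals overlap, and with each peak weighted by its length the peaks of at least 1 kb held 66.6% of the difference between the libraries and 76.9% of the peak bases. The longest peak, which holds the finger-coding exons, had a ratio of -0.07 (interval -0.25 to 0.10). An intronic peak 25.5 kb from the start (chr10:7857850-7858177) had 15.3 RPKM in spleen and 4.46 in LI, and another at 27.5 kb (chr10:7859702-7860185) had 12.2 and 3.49 RPKM. In all, 5 Zc3h12d peaks had an interval below 0 and none had one above 0. The 5 include longer peaks of 1314 and 1251 bp, with ratios of -0.59 and -0.65. The ratios of the 5' and 3' parts of the gene body, divided at its middle, were -0.40 and -0.41. Weighting peaks by length, which gives the tall peaks their share of bases, brought the ratio of Zc3h12d to -0.22 (interval -0.33 to -0.12).

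The Roquin genes differed in ratio as well. Rc3h1, which encodes Roquin-1, summed to 366.9 RPKM in spleen and 356.2 in LI, a ratio of -0.04 (interval -0.21 to 0.13), with 14 of 35 peaks higher in LI. Rc3h2 summed to 306.4 RPKM in spleen and 239.8 in LI, a ratio of -0.35 (interval -0.57 to -0.13), with 9 of 29 peaks higher in LI. The intervals of the pair overlap with reads taken to cover 200 bp. Were reads taken to cover 75 bp, they would run from -0.15 to 0.07 for Rc3h1 and from -0.50 to -0.21 for Rc3h2, without overlap. All 4 Rc3h2 peaks of at least 1 kb were higher in spleen, with a summed ratio of -0.48 (interval -0.77 to -0.20). Its longest peak (chr2:37381346-37383279, intronic) had 15.9 RPKM in spleen and 10.8 in LI, and an intronic peak 17.4 kb from the start (chr2:37405003-37405921) had 11.1 and 4.98 RPKM. A peak in the untranslated exon near the 3' end (chr2:37371175-37371430) had 10.5 RPKM in spleen and 2.37 in LI. The longest Rc3h1 peak (chr1:160961855-160965346) had 14.4 and 15.6 RPKM. The single Rc3h1 peak with an interval above 0 (chr1:160932114-160932466, intronic) had 2.68 RPKM in spleen and 9.97 in LI.

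The Zfp36 family members had small ratios of both signs. Zfp36 summed to 40.0 RPKM in spleen and 49.0 in LI, a ratio of 0.29 (interval 0.0058 to 0.58). Its tall peak alone gave 0.13 (interval -0.09 to 0.36), so that the interval above 0 rests on a peak of 365 bp past the 3' end, which had 3.81 RPKM in spleen and 9.30 in LI. Zfp36l1 summed to 60.1 RPKM in spleen and 63.0 in LI, a ratio of 0.07 (interval -0.29 to 0.43). Its tall peak was higher in LI, at 0.23 (interval 0.05 to 0.42), and its 3 short peaks gave -0.12 (interval -0.83 to 0.60). Zfp36l2 summed to 67.5 RPKM in spleen and 59.1 in LI, a ratio of -0.19 (interval -0.40 to 0.02), with both of its peaks higher in spleen. Were reads taken to cover 75 bp, the Zfp36l2 interval would run from -0.33 to -0.05.

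**Figure D3:**
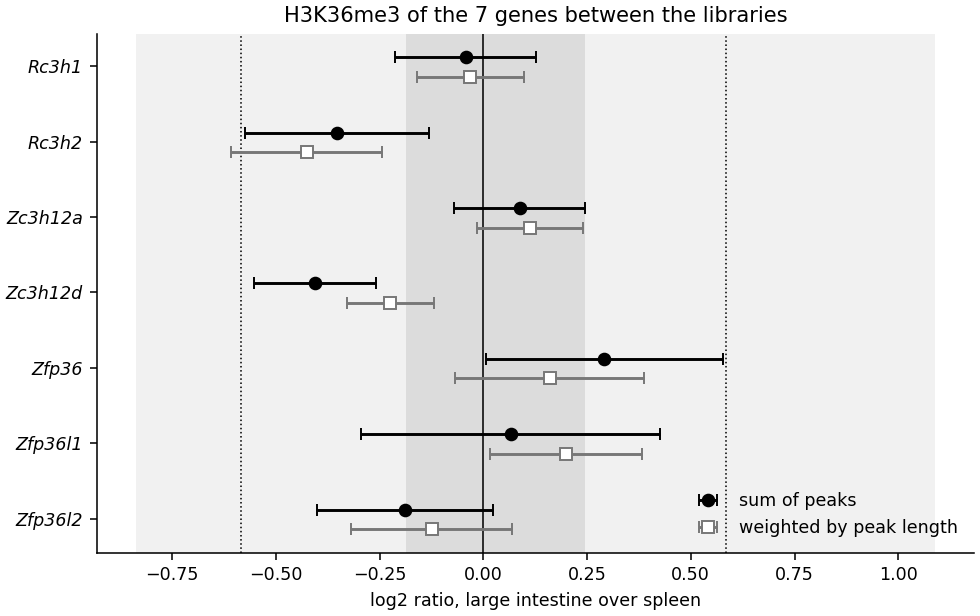
Log2 ratio of LI over spleen for each gene, from the sum of its peaks (filled circles) and from peaks weighted by length (open squares), with approximate 95% counting intervals. Dark and light grey hold the middle 50% and 95% of coding genes for the sum of peaks, and dotted lines mark 1.5-fold. The points of all 7 genes lie inside the dotted lines by either measure, with Zc3h12d at -0.41 and Zfp36 at 0.29 as the extremes for the sum.

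Peak by peak, 34 of the 101 peaks of the 7 genes were higher in LI and 67 higher in spleen, whereas 49% of all peaks were higher in LI. These totals rest mostly on Rc3h1, Rc3h2 and Zc3h12d. Peaks higher in LI and in spleen numbered 14 and 21 for Rc3h1, 9 and 20 for Rc3h2, and 3 and 21 for Zc3h12d. They numbered 4 and 1 for Zc3h12a, 2 and 0 for Zfp36, 2 and 2 for Zfp36l1, and 0 and 2 for Zfp36l2. Of the 27 peaks of at least 1 kb, 8 were higher in LI, beside 51.4% of all peaks of that length. Peaks past 1.5-fold numbered 6 higher in LI and 23 higher in spleen, where 18.7% and 20.1% of all peaks passed in these directions. The peaks of a gene share its chromatin and the library, so they are not separate samples. The interval lay above 0 for 2 of the 101 peaks and below 0 for 10, against 6.25% and 5.94% of all peaks. The 10 belonged to Rc3h2 and Zc3h12d, with 5 each.

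Base composition moved with the ratio. Over all peaks, the median ratio was -0.41 in the 10% of peaks lowest in GC content and 0.29 in the 10% highest, and over peaks of at least 1 kb it ran from -0.25 to 0.20. The peak bases of Rc3h1 and Rc3h2 were 40.9% and 39.1% GC, those of Zc3h12d 47.6%, and those of the compact genes 51.5% to 58.7%. Correcting each peak for the trend over all peaks changed Rc3h1 to 0.16, Rc3h2 to -0.07, Zc3h12a to -0.15, Zfp36 to -0.02 and Zfp36l2 to -0.52, while Zc3h12d gave -0.43 and Zfp36l1 gave 0.0015. The median GC content of all peaks was 46.5%, and single Zc3h12d peaks ranged from 31.6% to 54.2%. An alternative chosen after seeing the data combined length weighting with the trend over peaks of at least 1 kb. It gave -0.36 for Zfp36l2, -0.27 for Zc3h12d, -0.19 for Rc3h2, -0.08 for Zfp36, -0.06 for Zc3h12a, 0.07 for Zfp36l1 and 0.16 for Rc3h1. The part of base composition in the ratios was not tested beyond these values.

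**Figure D4:**
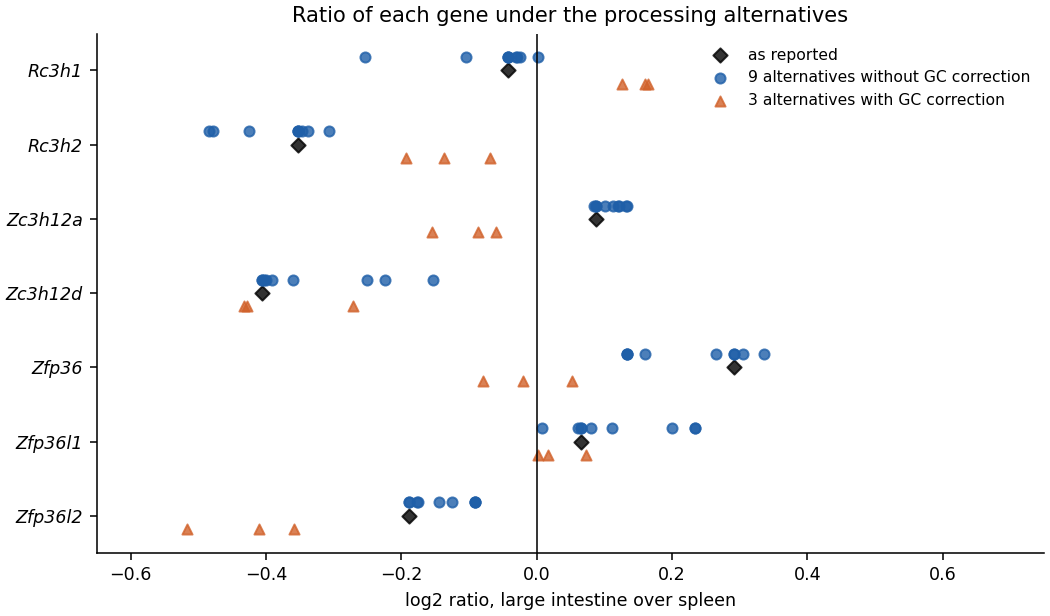
Log2 ratio of LI over spleen for each gene as reported (black diamonds), under alternatives without a GC correction (blue circles) and with one (orange triangles). Zc3h12d, Rc3h2 and Zfp36l2 stay below 0 throughout and Zfp36l1 stays above 0, whereas Rc3h1, Zc3h12a and Zfp36 cross 0.

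The genes around these proteins were read from 4 lists. The decay machinery that Roquin and Zfp36 proteins recruit (CCR4-NOT, decapping, exosome and exonuclease genes) had 46 genes tested, none past 1.5-fold in either direction. Of these, 35 were higher in spleen and 11 in LI, with a median of -0.13, and 47.7% of all coding genes were higher in spleen. In the list 11 intervals lay below 0 and 1 above, where the shares over all coding genes were 14% and 18.1%. Cnot2, a structural subunit of CCR4-NOT, went from 185.6 RPKM in spleen to 145.4 in LI (-0.35), and Cnot4, a ubiquitin ligase that associates with it, from 244.3 to 194.4 RPKM (-0.33). At the other end, Dis3l, a cytoplasmic exosome nuclease, went from 283.3 to 356.7 RPKM (0.33) and Dis3l2, which degrades uridylated RNA, from 161.4 to 183.5 RPKM (0.18). The median GC content of the list was 45.8%.

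Cofactors and regulators of the 7 proteins had 24 genes tested, 2 past 1.5-fold higher in LI and 1 higher in spleen, with a median of -0.10. The shares of all coding genes past this fold, 8.8% and 5.21%, apply to each list here. Mapkapk2, the kinase that phosphorylates and inactivates tristetraprolin, had 71.5 RPKM in spleen and 137.5 in LI (0.94, interval 0.54 to 1.34). N4bp1, an RNA nuclease related to Regnase-1, had 157.0 and 248.3 RPKM (0.66, interval 0.45 to 0.86). Nufip2, a cofactor of Roquin, had 200.8 and 162.3 RPKM (-0.31), and the kinase Ikbke had 139.3 and 103.0 RPKM (-0.43). Hnrnpd, which binds AU-rich elements, was the gene past 1.5-fold higher in spleen, with 109.6 and 66.4 RPKM (-0.72).

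Genes whose mRNAs are known targets had 23 genes tested, with 5 past 1.5-fold higher in LI and 1 higher in spleen, and a median of 0.05, beside 8.8% and 5.21% of all coding genes past this fold. Tnfrsf9, a costimulatory receptor, had 78.4 RPKM in spleen and 154.5 in LI (0.97, interval 0.71 to 1.24). Icos, the costimulatory receptor whose mRNA is the best known Roquin target, had 106.8 and 184.4 RPKM (0.79, interval 0.52 to 1.05). Il10, Il4 and Stat3 were the others past 1.5-fold higher in LI, and Il4 had 1 peak of 5.60 RPKM in spleen and 14.8 in LI with an interval from -0.05 to 2.70. Il4 and Il10 reached the minimum of 20 RPKM through LI, where they were high, so their place among the genes tested depended on the difference itself. Myc was past 1.5-fold higher in spleen, with 64.9 and 36.8 RPKM (-0.81). Rel, an NF-kappaB subunit gene, had 288.3 and 228.7 RPKM (-0.33), and Il2ra had 251.3 and 238.0 RPKM (-0.08).

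Other genes with CCCH fingers had 37 annotation entries tested, 1 past 1.5-fold in each direction, and a median of -0.06. Zc3h11a stands in the annotation as 2 entries with the same values, and both were counted. Mbnl1, a splicing regulator, had 113 peaks that summed to 1209 RPKM in spleen and 893.7 in LI (-0.44), and Zc3h3 had 500.2 and 627.3 RPKM (0.33). Zc3h8 had 115.9 and 88.8 RPKM (-0.38), and Zc3h18 had 246.0 and 292.6 RPKM (0.25). Tiparp was past 1.5-fold higher in LI (1.30) and Mbnl3, with 2 peaks, higher in spleen (-2.49, interval -4.17 to -0.82). Mbnl3 had 19.98 RPKM in spleen and 3.14 in LI. It reached the minimum of 20 RPKM through spleen, so its place among the genes tested depended on the difference itself.

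**Figure D5:**
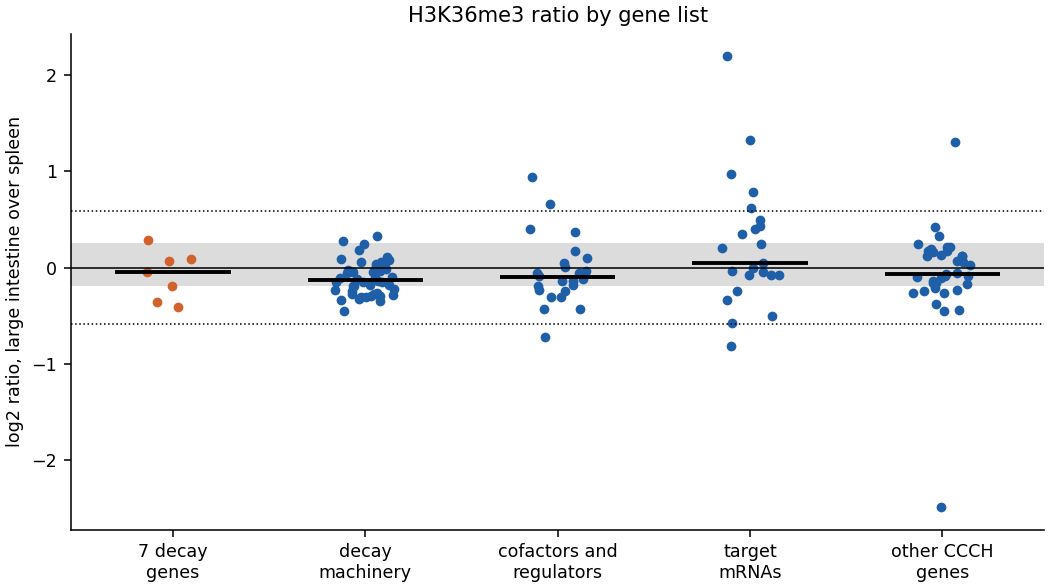
Log2 ratio of LI over spleen for the 7 decay genes (orange) and for every tested gene of the 4 lists (blue), with the median of each as a bar. Grey holds the middle 50% of all coding genes and dotted lines mark 1.5-fold. The decay machinery stays inside the dotted lines with a median of -0.13, and the target mRNA genes spread from -0.81 to 2.20.

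Markers of the sorted cells and of others were read in the same way. All 8 Treg and T cell markers carried peaks, with summed values of 2006 RPKM in spleen and 1632 in LI. Ikzf2 alone held 1235 and 840.5 RPKM of these sums, and the other 7 summed to 771.3 RPKM in spleen and 791.8 in LI, with 3 higher in LI and 4 in spleen. In contrast, Cd8a, Ms4a1, Lyz2, Itgam and Adgre1 had no peak. Of 5 epithelial markers, Epcam and Vil1 carried peaks and together summed to 47.1 RPKM in spleen and 79.0 in LI, while Cdh1, Krt8 and Krt20 had none. Of the B cell markers, Cd79a had 65.4 RPKM in spleen and 41.8 in LI, Cd79b had 9.10 and 13.5 RPKM, and Pax5 had 4.12 and 9.76 RPKM. Markers with peaks numbered 1 of 4 for myeloid cells, at 37.5 and 41.5 RPKM, and 1 of 2 for CD8 T cells, at 21.4 and 9.31 RPKM. The part of other cells in the ratios of the 7 genes was not tested.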

How the data were processed

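The authors aligned 75-nt single-end reads to mm10 (the submitters' processing notes list Bowtie2), called MACS2 peaks in each tissue against splenic input (p-value cutoff 0.01) and merged them with bedtools. The deposited values are RPKM: the authors averaged RPKM coverage tracks over each merged peak, without dividing by input. The deposited table is named as raw counts, but its values are not whole. Steps in the values corresponded to about 29600000 mapped reads in spleen and 38100000 in LI, with 20-bp bins taken. The number of reads per peak was not recovered, so no count test was run.

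Columns were scaled to equal totals (factors 1.02 and 0.984). Genes came from GENCODE M21 on GRCm38.p6, whose chromosome lengths hold all peaks. Genes with a sum of 20 RPKM or more across the libraries were compared, and called past 1.5-fold. Intervals assume Poisson counts of 200-bp reads. With 1 library per tissue no test was run. The gene table was tested on simulated Poisson counts over these peaks, with 200 coding genes of at least 200 RPKM changed 2-fold. The simulation held no variation beyond counting, so it says nothing of smaller ratios or of weaker genes. All members were described, with the coordinates of up to 3 peaks each, and for Zc3h12d also those of its highest peak. In each list, the 2 highest and 2 lowest ratios among genes with at least 200 RPKM were named. Other list genes past 1.5-fold were named after their values were seen. Members and lists were chosen with earlier results of these data known. Alternatives changed the scaling, pseudocount, filter, peak assignment, weighting and GC correction. The analysis used Python 3.11.15, numpy 2.4.6 and pandas 2.3.3. One marker gene is not reported here.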

Additional observations from a re-analysis of the deposited data

How the results depend on the processing

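Of 196 values recomputed under an alternative, 178 stayed within their counting error. For counts of genes the limit was 1.5 times, and for list medians it was the counting error of a typical gene. Lists and counts made up 112 of the values, of which 108 stayed and 4 moved by more. They include the counts of the 7 genes, which were 0 throughout and could not rise with 2-fold in place of 1.5-fold. The counting error of a typical gene, with half-widths of 0.21 to 0.27, is wider than that of a median over many genes. List medians all stayed by this rule, also where they changed sign, so the rule could hardly show them moving. Among the ratios of the 7 genes, 70 of 84 stayed, 12 moved by more and 2 went from an interval off 0 to the opposite sign. Both of the latter were the ratio of Zfp36, which gave -0.020 with a correction for the GC trend over all peaks and -0.080 with length weighting and the GC trend over peaks of at least 1 kb. The latter alternative, and the correction with the trend over peaks of at least 1 kb alone, were chosen after seeing the data. The number of the 7 genes past 1.5-fold was 0 in each direction under all alternatives run. Coding genes past the fold numbered 887 higher in LI and 525 higher in spleen as reported, of 10080 tested. With 2-fold in place of 1.5-fold they numbered 310 and 178 of the same 10080. With peaks of at least 1 kb alone they numbered 368 and 165, but only 7984 coding genes were tested there. Across alternatives the ratio ran from -0.43 to -0.15 for Zc3h12d, from -0.48 to -0.07 for Rc3h2, from -0.52 to -0.09 for Zfp36l2 and from 0.0015 to 0.23 for Zfp36l1. It ran from -0.25 to 0.16 for Rc3h1, which changed sign under 4 alternatives, and from -0.15 to 0.13 for Zc3h12a, which did so under 3. The interval of both included 0 as reported. The median changed sign under 3 alternatives for the target mRNA list, 4 for the other CCCH genes, 1 for the cofactors and 1 for the 7 genes. The median of the target mRNA list ran from -0.01 to 0.19 and that of the decay machinery from -0.14 to -0.03. The cause of these moves was not tested. No paired analysis was possible because each tissue had 1 library and no test was run. Depth limits short peaks most, as the interval from -0.33 to 2.70 of the 365-bp peak past Zfp36 shows.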
